A study of Mus musculus with 12 samples.

Results

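Transcripts of 7 genes that set the phosphorylation of eIF2alpha were followed in mouse granulocyte-monocyte progenitor clones with and without Tafazzin. They were the 4 eIF2alpha kinases (Eif2ak1, Eif2ak2, Eif2ak3 and Eif2ak4), the regulatory subunits of the 2 eIF2alpha phosphatases (Ppp1r15a and Ppp1r15b), and the mitochondrial protease Oma1. The genes were listed by name, as inputs and feedback of the integrated stress response, with earlier results of these data known; no measured value enters the rule. All 7 were found among the 37583 gene identifiers of the count tables, and all 7 were among the 11819 genes with enough counts to be tested.

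RNA was sequenced from 12 clones, each grown from a single cell. The clones descended from fetal liver blood progenitors of C57BL/6 embryos (E15.5) and carried a retroviral ER-Hoxb8 fusion, which holds progenitors in an immature, dividing state while estradiol is present. Both genotypes were grown alike, with about 50 ng/ml of stem cell factor (SCF), 10% fetal bovine serum and 0.5 µM beta-estradiol. Each genotype has 6 clones: 1A, 1B, 1C, 2D, 2E, 2F (wild type) and 3G, 3H, 3I, 4J, 4K, 4L (Tafazzin knockout). Tafazzin is the mitochondrial enzyme that remodels the phospholipid cardiolipin. How the knockout was made is not stated in the labels, and neither is the meaning of the leading number of a clone's name, here called its title number. Should same-numbered clones share an embryo or a starting culture, they are not separate replicates, and p-values that treat all 12 as such are too small.

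When eIF2alpha is phosphorylated, it blocks its own exchange factor eIF2B, and general protein synthesis falls while a few mRNAs, such as that of the transcription factor ATF4, are translated more. Each kinase senses a different stress: HRI (Eif2ak1) responds to heme shortage and mitochondrial stress, PKR (Eif2ak2) to double-stranded RNA, PERK (Eif2ak3) to unfolded protein in the endoplasmic reticulum, and GCN2 (Eif2ak4) to uncharged tRNA and stalled ribosomes. GADD34 (Ppp1r15a), which stress induces, and CReP (Ppp1r15b), which is made constitutively, each bring protein phosphatase 1 to eIF2alpha to reverse the signal. OMA1 is a protease of the inner mitochondrial membrane that cleaves DELE1, which then activates HRI in the cytosol. Kinase activity and the phosphorylation of eIF2alpha are properties of the proteins and were not measured here.

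Between 18970252 and 27431544 reads per clone were counted in genes, with a lower mean in knockout clones (21197723) than in wild-type clones (24969227; exact two-sided permutation p = 0.0152, n = 6 per genotype). The Tafazzin transcript (Taz) fell from 39.1 CPM ± 2.58 (SD, n = 6) to 3.35 CPM ± 0.684 (n = 6) with the knockout, without overlap. CPM are gene counts relative to library size, scaled by TMM, a correction for differences in library composition. All 14 markers of granulocyte-monocyte progenitors on the list used were expressed in both genotypes and 0 of them were called different by edgeR or by DESeq2, with 0 at an unadjusted p under 0.05. Wild-type clone 2D had the neutrophil gene S100a8 at 439 CPM, against at most 30.1 CPM in knockout clones, so results were also computed without 2D. For the marker counts that follow, edgeR called 3.94% of all tested genes lower in knockout, and DESeq2 called 14% in either direction. Of 7 mature neutrophil markers tested, 1 was lower in knockout by edgeR and 1 by DESeq2, with a median log2 fold change of -3.11. Their list summed to 22.2 to 1568 CPM in wild type and 15.9 to 148 CPM in knockout. Of 6 megakaryocyte markers tested, 1 was lower by edgeR and 2 by DESeq2. Knockout clone 3G stood apart by some genes of liver, stroma and macrophages. Alb was at 122 CPM there (at most 0.552 CPM in any other clone). Ttr was at 10.3 CPM and Col3a1 at 3.73 CPM (at 0 and at most 0.0424 CPM elsewhere), and C1qb at 2.21 CPM (at most 0.130 CPM elsewhere). Other such markers were not highest in 3G. Afp was at 0.105 CPM there and 1.40 CPM in 3I, and Apoa2 at 0.998 CPM and 1.54 CPM in 4K. Adgre1 was at 33.6 CPM in 3G and 53.4 CPM in 4J, and Fcgr1 at 2.21 CPM and 5.16 CPM in 1A. Dcn and Serpina1a were at 0 in every clone. Of the lymphoid markers, 2 of 8 tested were lower in knockout by edgeR and 1 by DESeq2, while 6 did not pass. The summed level of the 12 listed was 40.1 to 103 CPM in wild type and 6.93 to 35.0 CPM in knockout, with Cd3e at 0 in every clone and Pax5 at no more than 2 counts. The part of other cell types in the results was not tested. Because these are bulk samples, fewer cells of a type and less RNA per cell cannot be told apart.

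Promoter sequences are shown for the kinase and the phosphatase subunit with the largest genotype differences, because Ppp1r15a is a known target of stress-activated transcription factors and Eif2ak1 is the kinase that differed. Each run is the 250 bases before the RefSeq transcription start on GRCm38.p6, 5′ to 3′ on the gene's own strand. The window of Ppp1r15a is chr7:45526269-45526518 on the minus strand, and that of Eif2ak1 is chr5:143817542-143817791 on the plus strand. Capitals mark the cAMP response element, the palindrome TGACGTCA that CREB and ATF family factors bind.
Ppp1r15a: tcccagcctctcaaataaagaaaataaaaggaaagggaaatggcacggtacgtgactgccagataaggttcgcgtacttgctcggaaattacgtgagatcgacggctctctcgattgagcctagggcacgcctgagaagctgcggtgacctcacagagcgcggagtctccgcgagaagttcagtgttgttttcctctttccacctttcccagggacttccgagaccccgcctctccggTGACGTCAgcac
Eif2ak1: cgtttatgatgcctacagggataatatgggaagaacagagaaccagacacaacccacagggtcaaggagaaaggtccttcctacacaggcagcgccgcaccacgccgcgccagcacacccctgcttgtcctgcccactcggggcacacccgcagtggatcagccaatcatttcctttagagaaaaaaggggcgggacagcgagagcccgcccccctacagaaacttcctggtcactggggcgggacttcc
In Ppp1r15a the element begins 12 bases before the start site. It was found on either strand in 1.55% of the 32841 promoter windows searched. The same window holds a match to the interferon-stimulated response element (GAAA, any 2 bases, GAAA), which begins 220 bases upstream and occurs in 2.98% of windows. Windows were in the table for 6 of the 7 genes (7 windows, since Eif2ak4 has a pair). None of these 7 windows holds the ATF4 consensus TGANGNAA (14.1% of all windows) or the narrower C/EBP-ATF core TGATGNAA (3.45%), and none holds the endoplasmic reticulum stress element (CCAAT, any 9 bases, CCACG; 0.113%). The Ppp1r15a window is thus the one with a match among those of the members. A match describes letters only, and no match says only that those letters are not in this window.

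Of the 7 transcripts, that of Eif2ak1 differed between genotypes. It fell in knockout clones to 0.834 of its wild-type level. The transcripts of the other 3 kinases, of Ppp1r15b and of Oma1 were at 0.910 to 1.04 of their wild-type levels and did not pass the test. Ppp1r15a was 1.33-fold higher in knockout but did not pass either. By edgeR's quasi-likelihood test with Benjamini-Hochberg adjustment, 1 of the 7 was called lower and 0 were called higher at an adjusted p under 0.05. Over all 11819 genes tested, 7.94% were called (3.99% higher and 3.94% lower in knockout). An unadjusted p under 0.05 was reached by 3 of the 7 (Eif2ak1, Eif2ak2 and Ppp1r15a), against 23.7% of all genes. DESeq2 called Eif2ak1 lower and Ppp1r15a higher, where it called 14% of the genes to which it gave an adjusted p. The median log2 fold change of the 7 was -0.05, and that of all tested genes was -0.01.

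**Figure D1:**
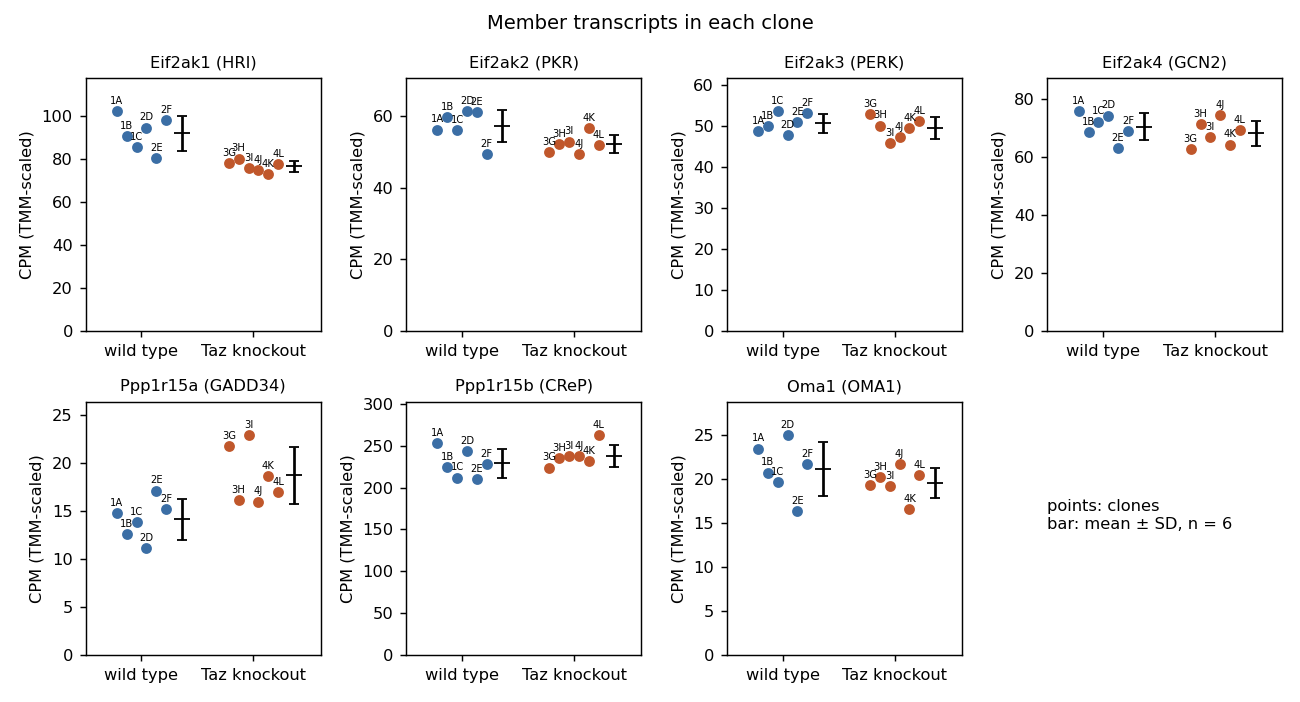
Level of each of the 7 transcripts in each clone (CPM, TMM-scaled, linear axis from 0); points are clones, and the bar gives the mean ± SD of 6 clones. Eif2ak1 is the gene whose genotypes do not overlap, at 80.3 to 102 CPM in wild type and 73.1 to 80.2 CPM in knockout.

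HRI, the product of Eif2ak1 (ENSMUSG00000029613, chromosome 5), is the heme-regulated kinase. Its transcript was at 102, 90.7, 85.5, 94.6, 80.3 and 98.2 CPM in the wild-type clones, in the order 1A to 2F. In the knockout clones, in the order 3G to 4L, it was at 78.1, 80.2, 75.9, 74.8, 73.1 and 77.7 CPM. Every knockout clone lay below every wild-type clone, although the lowest wild-type clone, 2E, exceeded the highest knockout clone, 3H, by only 0.0678 CPM. Such separation was seen in 5.38% of all tested genes (2.84% lower in knockout). The wild-type mean was 91.9 CPM ± 8.10 (SD, n = 6), and the knockout mean was 76.6 CPM ± 2.54 (n = 6). Wild-type clones were thus more spread than knockout clones, with a coefficient of variation of 8.81% against 3.32%. The log2 fold change was -0.26 (SE 0.05, 95% interval -0.38 to -0.14, adjusted p = 0.0147 by edgeR), and 6 of 6 knockout clones showed its direction. Eif2ak1 stood at rank 359 of the 11819 genes by adjusted p.

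The call of Eif2ak1 held when any of the 12 clones was left out, with adjusted p by edgeR from 0.00490 (without 2E) to 0.0381 (without 3I), and 0.0259 without 2D. It was lost when counts were summed by title number into 2 samples per genotype (adjusted p = 0.0605, log2 fold change -0.26). Between single pairs of title numbers, 3 clones against 3, the log2 fold change was -0.25 (3 minus 1), -0.22 (3 minus 2), -0.30 (4 minus 1) and -0.28 (4 minus 2). None of these pairs reached the threshold by edgeR (adjusted p 0.164 to 0.256), where 1.57%, 0.719%, 0.508% and 0.262% of all genes did, while each had an unadjusted p under 0.05. Each library enters a pair more than once, so the pairs do not count as separate evidence. Within a genotype, title numbers differed by -0.03 (2 minus 1) and -0.05 (4 minus 3) on the log2 scale, with 0 of 11819 genes called in either comparison by edgeR. Reads were counted without regard to strand, and exons of Aimp2 on the other strand cover 8.59% of the exon bases of Eif2ak1 in GENCODE. Aimp2, a scaffold protein of the tRNA synthetase complex, averaged 32.96 CPM ± 3.78 (SD, n = 6) without the knockout and 30.4 CPM ± 2.25 (n = 6) with it, which did not pass (log2 fold change -0.12, adjusted p = 0.413 by edgeR). HTSeq, the counting program, set reads that fit more than 1 gene apart as ambiguous (1.59% of records). How far reads in the shared bases affect the Eif2ak1 count was not tested.

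PKR, encoded by Eif2ak2 (ENSMUSG00000024079, chromosome 17), is the interferon-inducible kinase. Its transcript ran from 49.3 to 61.2 CPM in wild type (median 57.9) and from 49.3 to 56.5 CPM in knockout (median 52.0). The genotypes overlapped: 3 wild-type clones (1B, 2D and 2E) lay above every knockout clone, and wild-type clone 2F was level with the lowest knockout clone, 4J. The log2 fold change was -0.14 (SE 0.06, 95% interval -0.26 to -0.01), with an adjusted p of 0.164 by edgeR. Without 2F it passed (log2 fold change -0.17, adjusted p = 0.0470). All 6 knockout clones were below the wild-type mean of 57.2 CPM.

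PERK (Eif2ak3, ENSMUSG00000031668, chromosome 6) and GCN2 (Eif2ak4, ENSMUSG00000005102, chromosome 2) were the kinases with the smallest differences. Eif2ak3 ran from 47.9 to 53.6 CPM in wild type (median 50.4) and from 45.8 to 52.9 CPM in knockout (median 49.8). Its log2 fold change was -0.03 (95% interval -0.13 to 0.06, adjusted p = 0.698 by edgeR). Eif2ak4 ran from 63.1 to 75.8 CPM in wild type (median 70.6) and from 62.9 to 74.5 CPM in knockout (median 68.3). Its log2 fold change was -0.05 (95% interval -0.16 to 0.07, adjusted p = 0.650 by edgeR). For both kinases the clones of the genotypes were interleaved. As folds, the intervals ran from 0.913 to 1.04 for Eif2ak3 and from 0.893 to 1.05 for Eif2ak4, and smaller differences than these bounds were not resolved with 6 clones per genotype. Whether the change of Eif2ak1 differed from that of the other kinases was not tested.

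**Figure D2:**
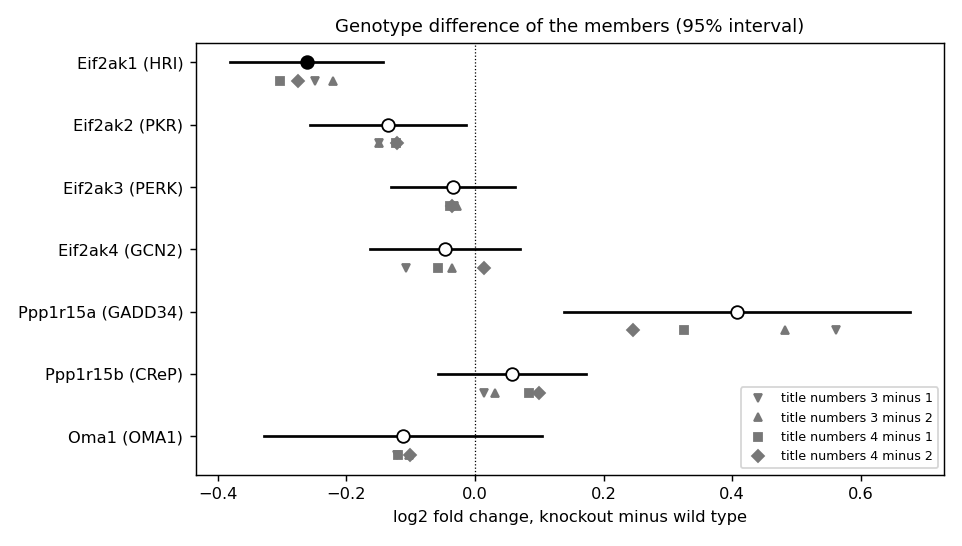
Log2 fold change (knockout minus wild type) of the 7 transcripts; circles and lines are the edgeR estimate and 95% interval over 12 clones, filled where the adjusted p is under 0.05, and grey symbols are the 4 pairs of title numbers. Eif2ak1 lies at -0.26 with its 4 pairs between -0.30 and -0.22, and Ppp1r15a lies at 0.41 with its pairs between 0.25 and 0.56.

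GADD34, encoded by Ppp1r15a (ENSMUSG00000040435, chromosome 7), is the phosphatase subunit that stress induces through ATF4 and CHOP. From 1A to 2F the wild-type clones were at 14.7, 12.6, 13.9, 11.1, 17.1 and 15.2 CPM. From 3G to 4L the knockout clones were at 21.7, 16.1, 22.9, 15.95, 18.6 and 17.0 CPM. All 6 knockout clones exceeded the wild-type mean of 14.1 CPM ± 2.10 (SD, n = 6), and 3 of them (3G, 3I and 4K) exceeded every wild-type clone. The genotypes overlapped through 2E, which was above 3H, 4J and 4L. The knockout mean was 18.7 CPM ± 2.97 (n = 6). The log2 fold change was 0.41 (SE 0.12, 95% interval 0.14 to 0.68), with an unadjusted p of 0.00637 and an adjusted p of 0.0658 by edgeR. The threshold was passed by DESeq2 (adjusted p = 0.0207), by limma voom with title number as a correlated block (0.0151) and by edgeR without 2E (0.0413). The block correlation was estimated as negative (-0.17), so that voom fit makes no allowance for likeness among same-numbered clones. A negative correlation lowers the SE of the genotype difference, which makes this fit less strict than voom without the block. Without the block, voom gave an adjusted p of 0.0672. Over all 20 alternatives the adjusted p of Ppp1r15a was 0.0151 to 0.139. With counts summed by title number Ppp1r15a did not pass (log2 fold change 0.41, adjusted p = 0.136 by edgeR). Clones 3G and 3I were the highest: pairs with title number 3 gave 0.56 and 0.48, and pairs with title number 4 gave 0.32 and 0.25 on the log2 scale. None of these pairs was called. Without 3G, the clone highest in Alb and C1qb, the log2 fold change was 0.36 (adjusted p = 0.137 by edgeR).

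CReP, encoded by Ppp1r15b (ENSMUSG00000046062, chromosome 1), is the constitutive partner. It ran from 210.2 to 254 CPM in wild type (median 227) and from 224 to 263 CPM in knockout (median 236). The genotypes overlapped, and the highest value was that of knockout clone 4L. The log2 fold change was 0.06 (SE 0.05, 95% interval -0.06 to 0.17, adjusted p = 0.557 by edgeR). Ppp1r15b thus had 10.3 to 21.9 times as many counts as Ppp1r15a in the same clone, lowest in 3G and highest in 2D.

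The log2 ratio of Ppp1r15a over Ppp1r15b within a clone depends on the scaling between clones only through the prior count added before the log. With a prior count of 0.5 in place of 2, the knockout minus wild-type difference was 0.347 rather than 0.346. The wild-type mean of the ratio was -4.02 ± 0.280 (SD, n = 6), and the knockout mean was -3.68 ± 0.264 (n = 6). The ratio was 0.35 higher in knockout, which did not pass (exact two-sided permutation p = 0.0606, 1 comparison; the smallest p this design allows is 0.00216). Leaving out a clone gave p from 0.0216 to 0.126, under 0.05 without 2E (0.0216), without 4L (0.0325) or without 4J (0.0498). The ratio was highest in 3G (-3.36) and 3I (-3.37) and lowest in 2D (-4.44). The values of 2E (-3.61) and 4K (-3.63) were next to each other, one of each genotype.

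The protease OMA1 (Oma1, ENSMUSG00000035069, chromosome 4) is largely dormant in unstressed mitochondria and is switched on when the membrane potential drops. Its transcript was at 23.5, 20.7, 19.6, 25.0, 16.3 and 21.7 CPM in wild-type clones 1A to 2F. It was at 19.3, 20.2, 19.2, 21.7, 16.6 and 20.5 CPM in knockout clones 3G to 4L. The knockout clones lay inside the wild-type range, and the lowest clone of each genotype, 2E and 4K, had about the same level. The log2 fold change was -0.11 (SE 0.10, 95% interval -0.33 to 0.10, adjusted p = 0.539 by edgeR). Oma1 and Ppp1r15a had the fewest reads of the 7, with 355 to 614 and 257 to 539 counts per clone. Their intervals were wider than those of the kinases, and so was their spread in wild type, with coefficients of variation of 14.4% and 14.9%.

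Levels of different genes can be set side by side only per length, here as CPM per kb of annotated exon. In wild-type clones Ppp1r15b was highest (40.9 ± 3.09 CPM per kb, SD, n = 6), followed by Eif2ak1 (16.2 ± 1.43), Eif2ak2 (11.2 ± 0.885), Oma1 (9.87 ± 1.42), Eif2ak4 (9.46 ± 0.622), Eif2ak3 (8.41 ± 0.381) and Ppp1r15a (4.80 ± 0.713). The ranges of Ppp1r15b, of Eif2ak1 and of Ppp1r15a each stood clear of their neighbours. The ranges of Eif2ak2, Oma1, Eif2ak4 and Eif2ak3 overlapped from each to the next. In knockout clones Eif2ak1 (13.5 ± 0.448) was still the highest kinase, and the range of Ppp1r15a (5.43 to 7.79) reached that of Eif2ak3 (7.61 to 8.79). Per length Ppp1r15b was 8.52-fold above Ppp1r15a in wild type and 6.68-fold above it in knockout. With the longest transcript as length, Ppp1r15b, Eif2ak1 and Ppp1r15a kept these places and the 4 in the middle lay between 11.0 and 13.3 CPM per kb in wild type.

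**Figure D3:**
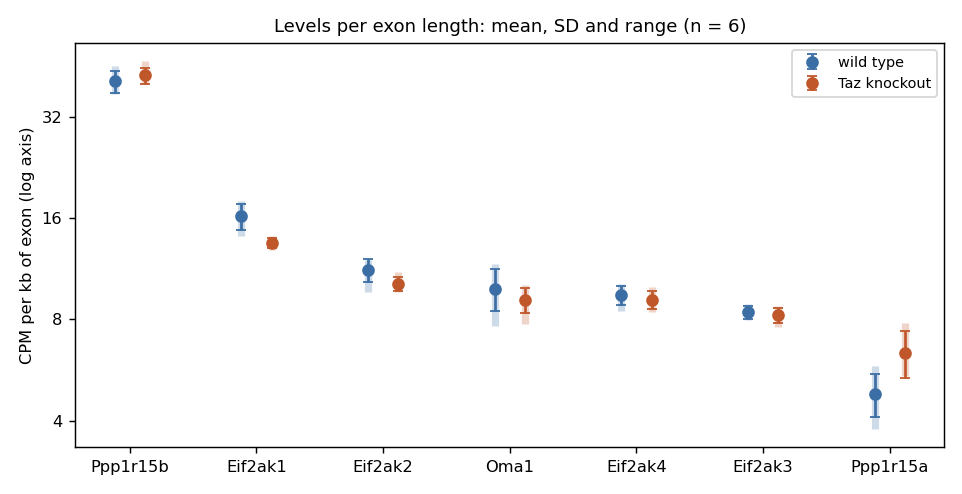
Level of each transcript per kb of exon (log axis) by genotype, with mean and SD as points and error bars and the range of 6 clones as the pale band. Ppp1r15b at 40.9 CPM per kb in wild type is 8.52-fold above Ppp1r15a at 4.80, and Eif2ak1 is the highest kinase in both genotypes.

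Eif2ak1 made up 35.8% ± 2.23 (SD, n = 6) of the summed wild-type kinase transcripts per length, and 32.9% ± 0.796 (n = 6) of those in knockout. The sum of the 4 kinases was 43.0 to 47.3 CPM per kb in wild-type clones and 40.3 to 42.2 CPM per kb in knockout clones. The sum did not overlap between genotypes, and is a description because Eif2ak1 is its largest part. Eif2ak2 held 24.8% in each genotype and Eif2ak4 20.9% and 22.3%, with Eif2ak3 making up the rest.

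The members also differ in the start of their mRNA. Start codons upstream of the coding sequence, which can make translation depend on eIF2alpha phosphorylation, were counted in GENCODE M21 transcripts. There were 3 in Ppp1r15b, 3 in the shorter and 7 in the longer Ppp1r15a transcript, 3 in Eif2ak3 and 1 in Eif2ak2, and 0 in Eif2ak1, Eif2ak4 and Oma1. Both phosphatase subunits, whose mRNAs are known to be translated under stress, thus carry them. Counts of RNA do not show translation.

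Other genes of the pathway were described by lists, read against the 3.99% and 3.94% of all genes called higher and lower by edgeR. For an unadjusted p under 0.05 by edgeR the share was 23.7% of all genes, and DESeq2 called 14% in either direction. Of 14 genes of eIF2, eIF2B and their partners, 1 rose and 1 fell by edgeR. Eif5, the GTPase-activating protein of eIF2, went from 489 to 579 CPM (log2 fold change 0.24, adjusted p = 0.0309), and Eif5b, which joins the ribosomal subunits, from 286 to 259 CPM (-0.14, adjusted p = 0.0490). Eif2s1, which encodes eIF2alpha itself, was at 207 and 201 CPM (-0.04, adjusted p = 0.776). The median of the list was -0.05. Among the 3 catalytic subunits of protein phosphatase 1 and Actb, whose actin is a cofactor of the GADD34 complex, 0 were called by edgeR or DESeq2, and 1 had an unadjusted p under 0.05.

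Of 16 regulators of the kinases, 3 rose and 1 fell by edgeR, with a list median of 0.00. Rplp2 (log2 fold change 0.18, adjusted p = 0.0201) and Rplp0 (0.16, adjusted p = 0.0296) encode proteins of the ribosomal P-stalk, which activates GCN2. Hspa8, a chaperone that binds HRI, rose from 549 to 614 CPM (0.16, adjusted p = 0.0251). Hsp90b1, a chaperone of the endoplasmic reticulum, fell from 1942 to 1532 CPM (-0.34, adjusted p = 0.0136). The PERK regulators Hspa5 (BiP) and Dnajc3 did not pass (-0.22, adjusted p = 0.221, and -0.08, adjusted p = 0.431).

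Heme restrains HRI. Of 9 enzymes that make it, 8 could be tested and 0 were called by edgeR or DESeq2. Of these 8, 2 had an unadjusted p under 0.05 by edgeR, against 23.7% of all genes. The whole list of 13 also holds a carrier, the transcription factor Bach1 and the heme-degrading oxygenases, and had 12 tested genes with a median of -0.15, of which 0 rose and 1 fell by edgeR. The fall was that of the oxygenase Hmox2, from 49.7 to 40.3 CPM (log2 fold change -0.30, adjusted p = 0.0400). Eif2ak1 is abundant in red cell precursors, so erythroid markers were examined beside its fall. Of 12 markers 6 could be tested, and by edgeR 0 were called, while DESeq2 called 1 higher and 1 lower. An unadjusted p under 0.05 by edgeR was reached by 2 of the 6, against 23.7% of all genes. The summed level of the markers was 516 to 883 CPM in wild type and 780 to 1086 CPM in knockout, most of it from Tfrc, the transferrin receptor. Slc4a1, Hba-a1 and Hba-a2 had at most 3 counts in any clone and Alas2 at most 15. Other erythroid genes were present, and highest in wild-type clone 1A: Gata1 was at 39.2 CPM there and 8.75 to 24.6 CPM in the other clones, Klf1 at 19.8 against 1.17 to 6.93 CPM, and Hbb-bs at 29.5 against 0.0468 to 2.00 CPM. Clone 1A also had the highest Eif2ak1, and without it the log2 fold change of Eif2ak1 was -0.23 (adjusted p = 0.0305 by edgeR). The beta-globin Hbb-bt averaged 5.58 CPM ± 4.43 (SD, n = 6) and 1.85 CPM ± 0.635 (n = 6), respectively (adjusted p = 0.106 by edgeR). The part of such cells in the Eif2ak1 difference was not tested.

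The known outputs of the pathway, targets of ATF4 and CHOP, rose in knockout: by edgeR 29 of the 35 tested were called higher and 0 lower, and the list median was 0.75 on the log2 scale. The list was chosen with earlier results of these data known, so its direction is not independent evidence. CHOP (Ddit3) went from 9.66 CPM ± 1.97 (SD, n = 6) up to 24.7 CPM ± 3.16 (n = 6; 1.35, adjusted p = 3.36e-04). Cebpg, which encodes a dimer partner of ATF4, rose from 98.6 to 142 CPM (0.53, adjusted p = 3.36e-04). Atf4 rose from 409 to 607 CPM (0.57, adjusted p = 0.0344 by edgeR), and kept that call without 1 clone in 3 of 12 such tests. Among the 35 targets, 7 had a smaller log2 fold change than Ppp1r15a, and 18 lay above the upper end of its 95% interval. Ppp1r15a therefore sat in the lower part of the range of the targets. In the ATF6 and XBP1 branches of the endoplasmic reticulum response, which run beside PERK, 3 of 22 rose and 4 fell by edgeR. Hsp90b1 is among these 4 and was also counted among the regulators of the kinases.

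**Figure D4:**
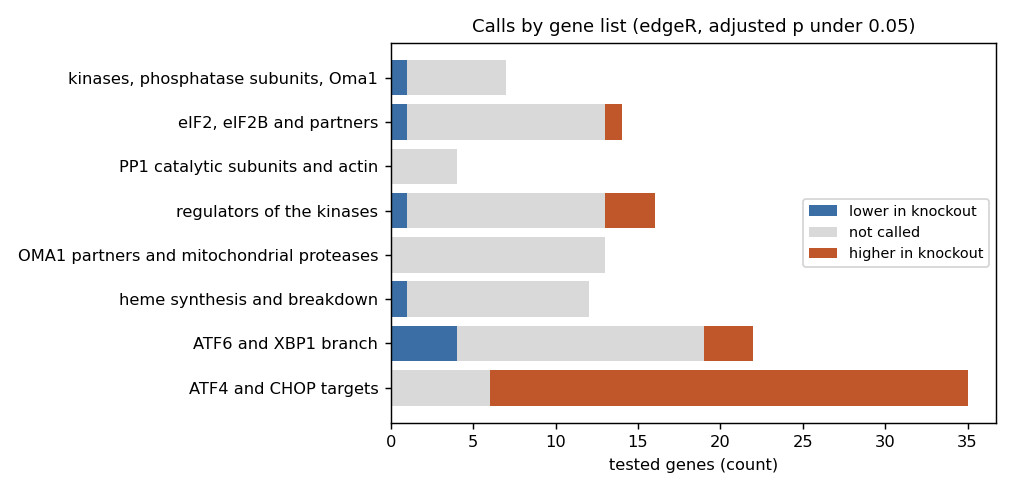
Number of tested genes in each list called lower, not called or called higher in knockout by edgeR at an adjusted p under 0.05. Calls in the upper 7 lists are 0 to 4 per direction, and 29 of the 35 ATF4 and CHOP targets are called higher. Lists differ in size, and over all genes 3.99% are called higher and 3.94% lower. Hsp90b1, called lower, is in both the regulators of the kinases and the ATF6 and XBP1 branch.

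A list of 13 genes held partners of OMA1, other proteins of the mitochondrial inner membrane and other mitochondrial proteases. By edgeR and by DESeq2 0 of them were called, and the list median was -0.09. By edgeR 3 had an unadjusted p under 0.05, against 23.7% of all genes. Opa1, the fusion GTPase that OMA1 cleaves, was at 176 to 209 CPM in wild type and 160 to 187 CPM in knockout (log2 fold change -0.14, adjusted p = 0.103 by edgeR). Yme1l1, the protease that acts on Opa1 beside OMA1, was at 260 to 301 CPM and 249.6 to 279 CPM (-0.09, adjusted p = 0.210 by edgeR).

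Dele1, the relay between OMA1 and HRI, was not uniform among knockout clones. In wild-type clones it ran from 64.7 to 71.4 CPM. In knockout clones 3G, 3I and 4J it was at 69.1, 72.0 and 69.8 CPM. In knockout clones 3H, 4K and 4L it was at 34.6, 35.6 and 36.3 CPM, or 0.508, 0.523 and 0.533 of the wild-type mean. Clones with either level carried title number 3 as well as 4. The genotype difference did not pass (log2 fold change -0.36, SE 0.20, adjusted p = 0.305 by edgeR). Eif2ak1 was at 80.2, 73.1 and 77.7 CPM in 3H, 4K and 4L and at 78.1, 75.9 and 74.8 CPM in 3G, 3I and 4J, so the values of Eif2ak1 were interleaved. This pattern was noticed after the values were seen and carries no test.

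**Figure D5:**
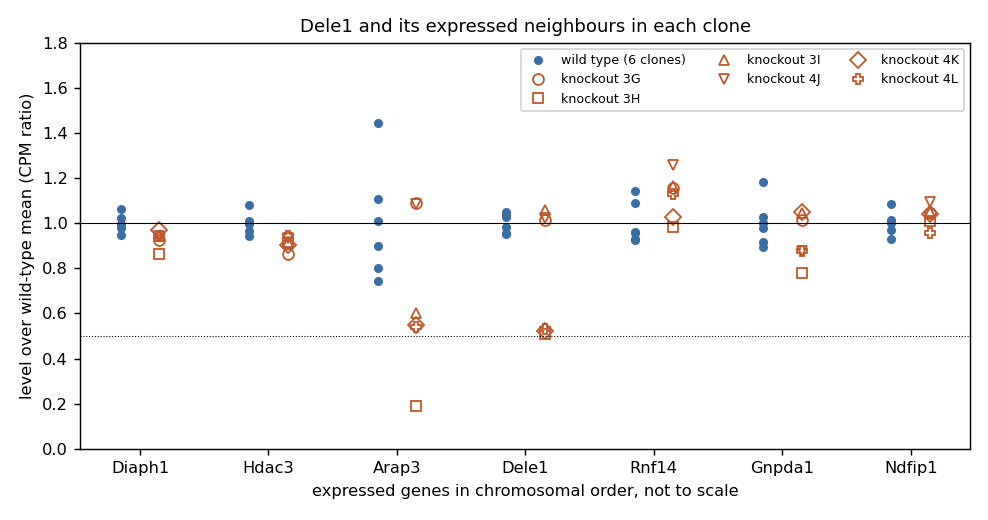
Level of Dele1 and of 3 expressed genes on each side of it, as a ratio to the wild-type mean, in each clone; blue points are wild-type clones, and open symbols are the knockout clones. Dele1 is at 0.508, 0.523 and 0.533 in 3H, 4K and 4L and between 1.015 and 1.058 in the other knockout clones.

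Clone-to-clone variation within a genotype was compared across genes after the genotype mean was taken off, by Pearson's r of log2 CPM over 12 clones. The clones share library, depth and scaling across genes, so r is a description. Among the 7, the highest r were Eif2ak4 with Oma1 (0.81), Eif2ak1 with Oma1 (0.78), Ppp1r15b with Oma1 (0.73) and Eif2ak1 with Ppp1r15b (0.70). Ppp1r15a ran the other way, with r of -0.68 to Eif2ak4 and -0.59 to Oma1. Clone 2E had the lowest Eif2ak1, Oma1 and Ppp1r15b and the highest Ppp1r15a of the wild-type clones. Among the 9325 genes compared, those most like Oma1 were Swap70 (0.98), Rars2 (0.98) and Sh2b2 (0.97), where the hundredth highest r was 0.90. Those most like Eif2ak1 were Snw1 (0.89), Suv39h2 (0.87) and Piga (0.86), and those most like Eif2ak2 were Golga1 (0.92), Sec24c (0.89) and Gcsh (0.84). For Eif2ak3 they were Tmem260 (0.92), Rpl37 (0.91) and Sec62 (0.90), and for Eif2ak4 Atp5a1 (0.94), Eif4enif1 (0.93) and Scaf11 (0.93). For Ppp1r15a they were Pank1 (0.91), Exoc6b (0.89) and Fermt3 (0.86), and for Ppp1r15b Eya3 (0.96), Eme1 (0.95) and Cpsf3 (0.95). For members other than Oma1 the hundredth highest r was lower, from 0.67 (Eif2ak2) to 0.86 (Ppp1r15b). Some r differed between genotypes. That of Piga with Eif2ak1 was 0.99 in wild type and 0.47 in knockout, and that of Fermt3 with Ppp1r15a was 0.78 and 0.96.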

How the data were processed

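RNA-seq of 12 clones was analysed from the deposited raw counts of reads per Ensembl gene. The build was mm9, and the tools named are STAR, HTSeq and edgeR, per the submitters' processing notes. Their versions are not given in the sources used here. Per the names of the files, reads were counted without strand, so strand does not separate overlapping genes. HTSeq's own totals were left out of library sizes; 43.6% of records were not uniquely aligned, 3.55% lay outside genes and 1.59% were ambiguous (means of 12 clones). Symbols were matched for 32860 of 37583 identifiers. Exon lengths and upstream start codons came from GENCODE M21 and promoters from RefSeq (GRCm38.p6), both of a later build than the counts.

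The test was edgeR 4.0.16 in R 4.3.3 (quasi-likelihood F-test, TMM, filterByExpr by genotype, Benjamini-Hochberg over 11819 genes), with genes called at an adjusted p under 0.05; SE and 95% intervals came from the same fit. Clone log2 CPM used a prior count of 2. Title numbers were compared in a fit of 4 groups. The ratio of phosphatase subunits and library totals had exact two-sided permutation tests. Scripts were tested on simulated data. Alternatives were DESeq2 1.42.0, limma 3.58.1 (voom, with and without title number as a block), other scalings, no filter, thinning, summing by title number and leaving out each clone. A count of 3 corresponds to 0.109 to 0.158 CPM, and covers counting error only. Nothing says that clones came from separate animals, so p-values measure the spread between these clones.

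The members and lists were chosen with earlier results of these data known. Named genes were the members, Taz, up to 4 called genes per list with the smallest adjusted p, known partners of single members, the 3 genes most like each member, and markers of other cell types. The list of interferon-stimulated genes is not reported here.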

Additional observations from a re-analysis of the deposited data

Results flagged for a closer look

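In 6 knockout clones, Ppp1r15b was at 262.7 CPM in 4L, apart from the others at 224 to 238 CPM (gap over range 0.64). Of 24 groups of 6 clones examined this way (12 measures in 2 genotypes), 1 stood out, and chance gives about 1 in 20. The genotype difference of Ppp1r15b did not pass with 4L or without it.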

How the results depend on the processing

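Every member kept the sign of its log2 fold change under all 20 alternatives. Eif2ak1 was called in 19 of 20, not with counts summed by title number (adjusted p = 0.0605). Ppp1r15a was called in 3, Eif2ak2 in 1 (without 2F), and Eif2ak3, Eif2ak4, Ppp1r15b and Oma1 in 0 of 20. Atf4 was called in 10 of 20, and without a clone its adjusted p ran from 0.00282 to 0.0735 by edgeR. Over all genes, 472 were called higher and 466 lower in knockout. DESeq2 called 802 and 813 (members 1 higher), voom with title number as a block 1171 and 1125 (members 1 higher; block correlation -0.17), counts summed by title number 158 and 116 (members 0 lower), and edgeR without a filter 271 and 280. Leaving out a clone gave 294 to 558 genes higher, 272 to 535 lower, 0 to 1 members higher and 1 to 2 lower, and a phosphatase ratio difference of 0.26 to 0.43. The causes of these shifts were not tested. No paired analysis was possible because the genotypes share no title number. With counts thinned to the smallest library, Ppp1r15a had an adjusted p of 0.0692 and Oma1 of 0.427 by edgeR. Neither was called, as with all reads. Thinning only removes reads, so it cannot show whether more depth would give a call.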

Other observations

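The neighbours of Dele1 on chromosome 18 were examined after its values were seen. Hdac3, Rnf14, Gnpda1, Ndfip1 and Diaph1 were not near 0.5 of the wild-type mean in any knockout clone. Arap3, the expressed gene next to Dele1, was at 16.1 CPM in 3H, 46.1 in 4K, 45.4 in 4L and 50.8 in 3I, and at 91.7 and 91.6 in 3G and 4J, against 62.7 to 122 CPM in wild type. The median ratio to the wild-type mean over 274 tested genes of the chromosome was 0.991 to 1.01 in every clone. Among 8518 genes with a wild-type mean of at least 10 CPM, 11 had exactly 3 knockout clones under 0.6 of the lowest wild-type clone and the other 3 at 0.9 of it or above, and Dele1 was the 1 gene low in 3H, 4K and 4L. The part of this in the other results was not tested.

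The 2 lymphoid markers called lower by edgeR were Cd79b and Igll1, genes of the B cell receptor and its precursor form. Cd79b was at 1.33 to 18.2 CPM in wild type and 0.328 to 1.16 CPM in knockout, and Igll1 at 1.91 to 45.1 and 0.637 to 1.05 CPM (adjusted p = 0.0074 and 0.0266 by edgeR).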
